A study of Homo sapiens with 18 samples.

Results

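The axon guidance ligands and receptors are 68 of the 28277 genes in the count table: the semaphorins of classes 3 to 7 apart from SEMA3D, the plexins and neuropilins, the slits and their roundabout (ROBO) receptors, the netrins with DCC and the UNC5 receptors, and the ephrins and Eph receptors. They were listed by gene symbol, with earlier results of these data known, and 34 of them are ligands and 34 receptors. Their RNA was measured in OVCAR3-KRAB, a human ovarian cancer cell line that stably carries dCas9-KRAB, a catalytically dead Cas9 fused to the KRAB repressor domain, so that a guide RNA silences the promoter it is directed to. Clonal cells carried a control guide directed to the Gal4 promoter (sgCtl), or 1 of a pair of guides to the XIST promoter (sgXIST7 and sgXIST9; XIST knockdown, XIST KD), and each line was kept in normoxia or placed at 1% oxygen for 24 h (hypoxia). This gave 6 groups with 3 libraries each, 18 in all. Gene positions are those of the deposited table, on hg38. Because each line is clonal, the guide cannot be told apart from the clone that carries it.

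Guidance molecules steer growing axons by attracting or repelling the growth cone, and the same ligands and receptors act in vessels, epithelia and tumors. Secreted class 3 semaphorins signal through a neuropilin bound to a plexin, whereas the membrane-bound semaphorins bind plexins directly. Slits are secreted ligands of ROBO receptors, netrins attract through DCC and repel through UNC5 receptors, and ephrins sit on the cell surface and signal to Eph receptor tyrosine kinases on the neighboring cell, with signaling in both directions.

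Libraries held 11794375 to 24906936 counts, with a median of 17629433.5. XIST, the targeted gene, had 4213 to 11209 counts in the sgCtl normoxia libraries and 1589 to 5014 in sgCtl hypoxia, against 0 to 5 in the 6 sgXIST7 libraries and 357 to 1009 in the 6 sgXIST9 libraries. The 8 hypoxia response genes used as a check summed to 151 to 470.4 CPM (counts scaled to library size with trimmed mean of M values factors) in normoxia and to 1068 to 2388 CPM in hypoxia, and 6, 7 and 7 of them were called higher in hypoxia in sgCtl, sgXIST7 and sgXIST9. EGLN3 was called in no line (log2 fold change 1.26, -0.56 and 0.59) and ADM not in sgCtl (0.17, adjusted p = 0.571, edgeR). The 11 ovarian and epithelial markers summed to 297 to 517 CPM, with EPCAM at group means of 159.9 to 243 CPM and KRT18 at 140.1 to 219 CPM. KRT8 stood at 4.41 to 34.7 CPM and PAX8 at 1.51 to 4.55 CPM. The others were near absent, and 3 of the 11 (CDH1, KRT7 and CLDN3) had at most 3 counts in every library, with CLDN3 at 0. MUC16 had at most 4 counts in a library, KRT19 and CLDN4 at most 8, and WT1 at most 14. Endothelial markers summed to 0 to 0.992 CPM, with 4 of 7 at 3 counts or fewer in every group, and leukocyte markers to 0 to 0.595 CPM, with 3 of 5 at that level. The 7 fibroblast markers summed to 736 to 999 CPM in sgCtl, 871 to 1287 CPM in sgXIST7 and 429.7 to 689 CPM in sgXIST9, nearly all of it COL3A1 (group means 523 to 1018 CPM) and, in the sgXIST lines, COL1A2 (45.5 to 189 CPM), with the other 5 at no more than 5.21 CPM. The 6 neuronal markers summed to 147 to 216, 186 to 273 and 113 to 199 CPM in the same order, most of it TUBB3 (100.1 to 242 CPM), with 2 of 6 at 3 counts or fewer in every group. MAP2 differed between the lines, with group means of 0.142 to 0.190 CPM in sgCtl and 15.1 to 33.6 CPM in the sgXIST lines. The part of the neuronal markers in the results was not tested. On the third principal component, replicate 3 of sgCtl hypoxia and of sgXIST9 hypoxia stood apart from the other libraries of its group, whereas the sgXIST7 hypoxia libraries were evenly spread. Replicate 3 was the shallowest library of each hypoxia group (12042716, 13483871 and 16208517 counts in sgCtl, sgXIST7 and sgXIST9).

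Of the 68 members, 50 passed the filter on low counts and were tested, and 18 did not. Those were SEMA3E, SEMA4A, SEMA4G, SEMA5A, SEMA5B, SEMA6D, PLXNA2, PLXNA4, SLIT1, SLIT3, ROBO4, NTN5, DCC, UNC5A, UNC5C, UNC5D, EFNB2 and EPHA8. DCC, the attractive netrin receptor, had 3 counts over all 18 libraries, and 6 members had at most 3 counts in each library. To compare genes, levels were divided by exon length (RPKM, CPM per kilobase of exon). In sgCtl normoxia the highest level was that of SEMA3C, a secreted semaphorin, at 35.4 ± 2.22 RPKM (SD, n = 3). SLIT2, the ROBO ligand, followed at 32.0 ± 1.92 RPKM, which differed from SEMA3C by less than their summed SDs. EPHA4, an Eph receptor that binds ephrins of both classes, stood at 27.1 ± 1.38 RPKM, below both. SEMA4C, a transmembrane semaphorin, reached 22.6 ± 1.44 RPKM, and PLXNB2, its plexin receptor, 20.9 ± 3.01 RPKM, so that this ligand and its receptor differed by less than their summed SDs. Summed over the 68 members, levels were 1548 ± 53.4 CPM in sgCtl normoxia and 1608 ± 180.0 CPM in sgCtl hypoxia (mean ± SD, n = 3). In sgXIST7 the sum was 2229 ± 155 CPM in normoxia and 2961 ± 230.3 CPM in hypoxia. In sgXIST9 it was 1559 ± 43.2 and 2189 ± 123 CPM, and in normoxia the sgXIST9 libraries overlapped with sgCtl while those of sgXIST7 did not.

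**Figure D1:**
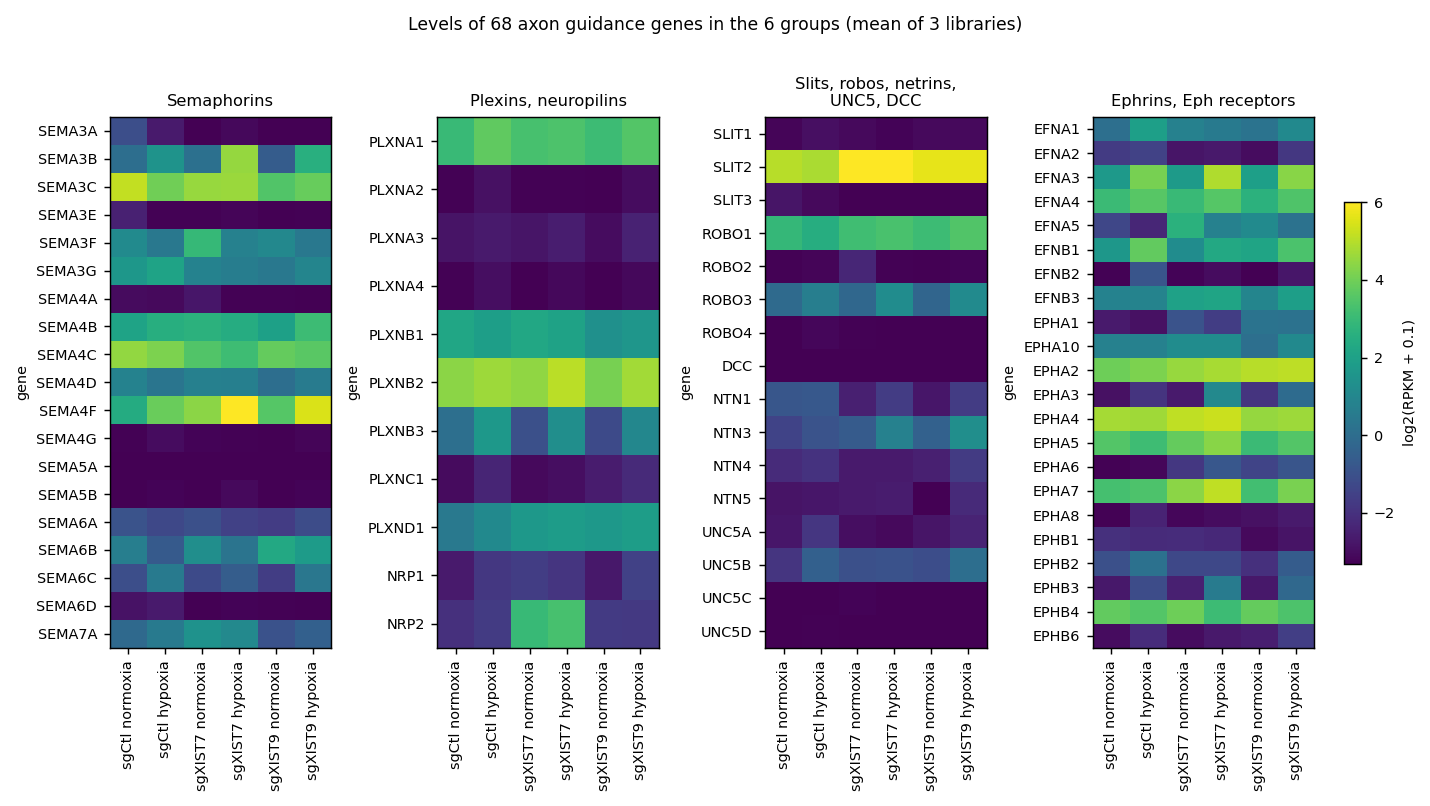
Level of each of the 68 guidance genes in the 6 groups, as log2(RPKM + 0.1) of the mean RPKM of 3 libraries (color). Genes are in rows, in panels by gene family, and groups are in columns. SEMA3C, SLIT2, EPHA4, SEMA4C and PLXNB2 are among the brightest rows in sgCtl normoxia, and EFNA5, EPHA6 and NRP2 change color between the cell lines.

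Hypoxia was compared with normoxia within each line to ask which guidance genes responded to low oxygen. A gene was called up- or down-regulated at a Benjamini-Hochberg adjusted p under 0.01 over all 14938 genes tested and a change of more than 1 on the log2 scale, by edgeR's quasi-likelihood test. In sgCtl, 14 of 50 members were called, 11 higher and 3 lower in hypoxia, beside 19.7% of all genes tested (11.3% higher and 8.49% lower). In sgXIST7, 15 were called, 11 higher and 4 lower, beside 27.3% of all genes (15.1% higher and 12.2% lower). In sgXIST9, 19 were called, all of them higher, beside 23.3% of all genes (14.7% higher and 8.58% lower). The median log2 fold change over the 50 members was 0.49 in sgCtl, 0.20 in sgXIST7 and 0.98 in sgXIST9, against 0.02, 0.01 and 0.09 over all genes tested. By system, 8, 5 and 6 of 22 tested semaphorin and plexin system genes were called in sgCtl, sgXIST7 and sgXIST9, and 5, 6 and 9 of 20 ephrin and Eph genes. In whole-culture RNA, more cells with a transcript and more RNA per cell cannot be told apart. SEMA4F, PLXNB3, EFNA3, EFNB1 and EPHB3 were called higher in hypoxia in all 3 lines. These are 5 of 50 members (10%), beside 6.99% of all genes tested. Of these, EPHB3 passed the filter on low counts through its hypoxia groups.

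**Figure D2:**
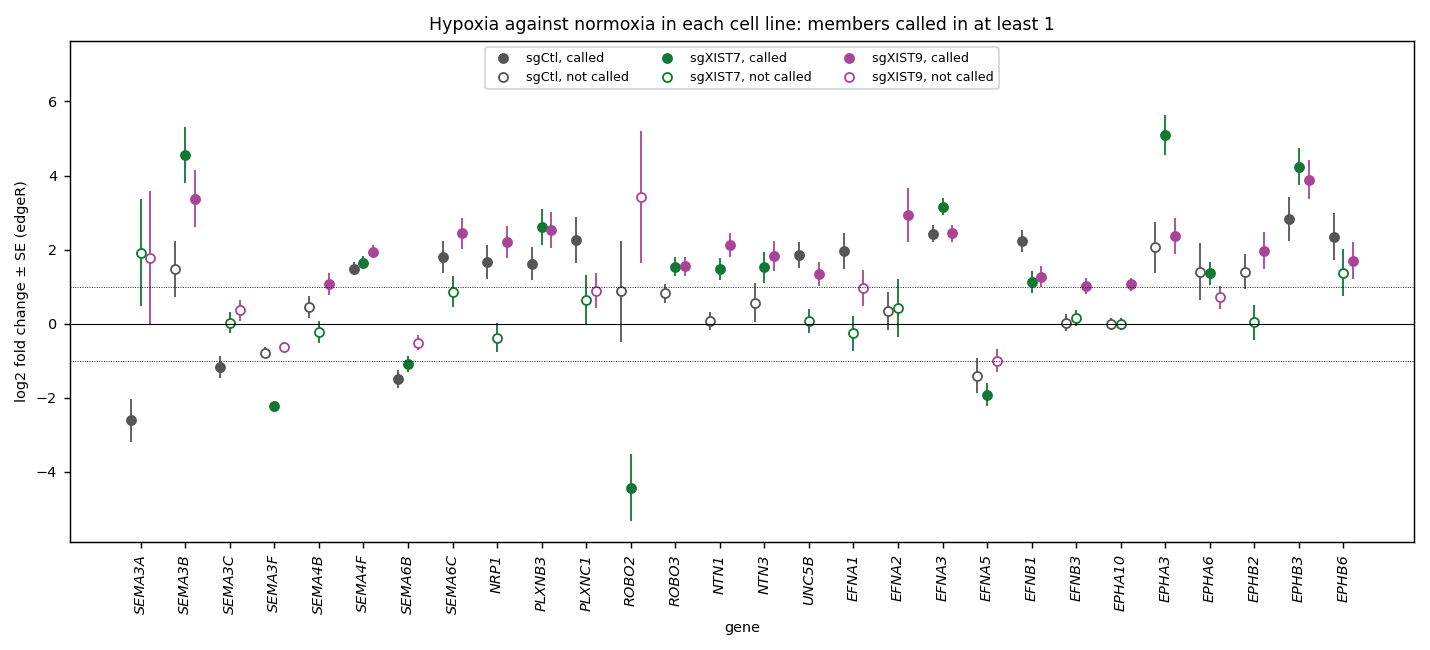
Log2 fold change in hypoxia against normoxia in sgCtl, sgXIST7 and sgXIST9, for each member called in at least 1 of the 3 lines. Filled points are members past both thresholds, and error bars are 1 SE. EFNA3 lies between 2.43 and 3.15 in the 3 lines, and in sgXIST9 all 19 filled points are on the higher side.

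The sgXIST lines were compared with sgCtl in each oxygen condition to ask which guidance genes differed with XIST KD. In normoxia, 16 of 50 members were called in sgXIST7 against sgCtl, 13 higher and 3 lower, beside 7.76% of all genes tested (4.67% higher and 3.09% lower). In sgXIST9, 12 were called, 7 higher and 5 lower, beside 7.7% (3.93% higher and 3.77% lower). In hypoxia, 20 were called in sgXIST7 (14 higher, 6 lower) beside 14% of all genes (7.83% higher and 6.19% lower). In sgXIST9, 10 were called in hypoxia (8 higher, 2 lower) beside 9.53% (6.14% higher and 3.39% lower). Median log2 fold changes of the members in normoxia were 0.28 in sgXIST7 and -0.12 in sgXIST9, against -0.01 and -0.02 over all genes. Both comparisons in an oxygen condition share the same 3 sgCtl libraries, so their values are given side by side and not as independent evidence. SEMA3A and NTN1 were lower in both sgXIST lines in normoxia, and SEMA4F, PLXND1, EFNA5, EPHA1 and EPHA6 were higher in both.

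**Figure D3:**
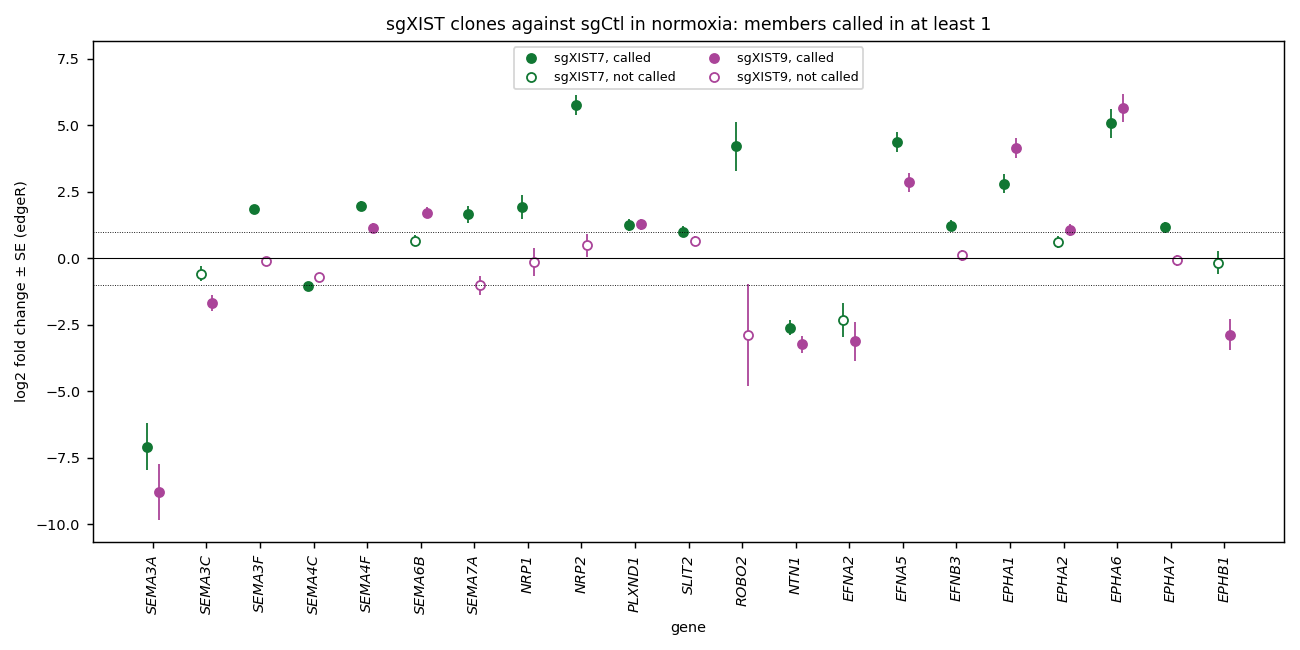
Log2 fold change in sgXIST7 and sgXIST9 against sgCtl in normoxia, for each member called in at least 1 of these comparisons. Filled points are members past both thresholds, and error bars are 1 SE. EPHA6 lies at 5.07 in sgXIST7 and 5.65 in sgXIST9, and SEMA3A is at the low end.

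Among the secreted semaphorins, SEMA3A, the growth cone repellent that signals through NRP1 (chromosome 7, 83955777 to 84194789), had 43, 44 and 48 counts in the sgCtl normoxia libraries and 5, 11 and 7 counts in sgCtl hypoxia. SEMA3A had 0, 0 and 1 counts in sgXIST7 normoxia and 0, 0 and 4 in sgXIST7 hypoxia. SEMA3A in sgXIST9 had 0, 0 and 0 counts in normoxia and 0, 1 and 0 in hypoxia. No library of either sgXIST line was above 4 counts, and the sgCtl normoxia libraries were the highest. In normoxia the ratio of sgCtl to sgXIST7 was 191 (95% exact interval 33.7 to 7606), where the interval covers counting error only and counts are not corrected for amplification. Against the 0 counts of sgXIST9 in normoxia, SEMA3A was at least 19.3-fold lower, taking 3 counts per library as the floor. Both calls had an adjusted p of 2.38e-05 and 1.76e-05. SEMA3A passed the filter on low counts through sgCtl normoxia, so the group in which it is high also decided that it was tested. In sgCtl itself SEMA3A fell in hypoxia (log2 fold change -2.61 ± 0.57, adjusted p = 0.00144; SE throughout), a call lost without sgCtl hypoxia replicate 1 (adjusted p = 0.0117). In hypoxia SEMA3A was also called lower in sgXIST9, with a ratio of sgCtl to sgXIST9 of 29.0 (95% exact interval 4.71 to 1195) and an adjusted p of 0.00618. That call was lost without sgCtl hypoxia replicate 2 or sgXIST9 hypoxia replicate 1, 2 or 3 (adjusted p up to 0.0316).

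SEMA3B, a secreted semaphorin that binds neuropilins (chromosome 3, 50267558 to 50277546), had 3.56, 3.71 and 2.81 CPM in the sgCtl normoxia libraries and 3.38, 3.42 and 22.2 CPM in sgCtl hypoxia. SEMA3B had 3.33, 4.89 and 2.57 CPM in sgXIST7 normoxia and 38.9, 69.0 and 144 in sgXIST7 hypoxia. SEMA3B in sgXIST9 had 1.96, 2.28 and 1.75 CPM in normoxia and 11.2, 8.17 and 43.9 in hypoxia. Its hypoxia libraries lay above all normoxia libraries of the same line in sgXIST7 and sgXIST9, while in sgCtl only replicate 3 did, and replicate 3 was the highest in each hypoxia group. SEMA3B rose in hypoxia in sgXIST7 (4.55 ± 0.75, adjusted p = 6.90e-05) and in sgXIST9 (3.38 ± 0.77, adjusted p = 0.00134). The sgXIST9 call was lost without sgXIST9 hypoxia replicate 3 (adjusted p = 0.0164). In hypoxia it was higher in sgXIST7 than in sgCtl (3.18 ± 0.70, adjusted p = 0.00191), a call lost without sgCtl hypoxia replicate 1 or 2 or sgXIST7 hypoxia replicate 3 (adjusted p up to 0.0166), without a filter on low counts (adjusted p = 0.0114) and in a fit of only the groups compared (adjusted p = 0.0221). Its neighbor SEMA3F lies 78.5 kb away on chromosome 3. SEMA3F, the secreted ligand of NRP2 (chromosome 3, 50155058 to 50189075), had 8.05, 9.44 and 7.52 CPM in the sgCtl normoxia libraries and 4.38, 4.86 and 5.32 CPM in sgCtl hypoxia. SEMA3F had 32.3, 29.5 and 27.9 CPM in sgXIST7 normoxia and 6.78, 6.30 and 5.96 in sgXIST7 hypoxia. SEMA3F in sgXIST9 had 8.35, 7.38 and 7.30 CPM in normoxia and 4.51, 4.58 and 5.74 in hypoxia. The sgXIST7 normoxia libraries stood above all 15 others, and those of sgXIST7 hypoxia were close to the rest. SEMA3F was higher in sgXIST7 than in sgCtl in normoxia (1.84 ± 0.15, adjusted p = 8.29e-08) and fell in hypoxia in sgXIST7 (-2.23 ± 0.15, adjusted p = 2.89e-09). Changes in hypoxia were -0.78 in sgCtl (adjusted p = 4.03e-04) and -0.64 in sgXIST9 (adjusted p = 0.00151), both within the threshold of 1.

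SEMA3C, which signals through both neuropilins, fell in hypoxia in sgCtl from 191 ± 11.9 to 85.0 ± 53.6 CPM (mean ± SD, n = 3; log2 fold change -1.17 ± 0.29, adjusted p = 0.00285), and it was lower in sgXIST9 than in sgCtl in normoxia, at 59.5 ± 3.18 CPM (-1.68 ± 0.29, adjusted p = 4.08e-04). The sgCtl hypoxia libraries held 56.8, 51.6 and 147 CPM, and the fall was -1.81 without replicate 3 of that group. The call was lost without sgCtl hypoxia replicate 1 or 2 or sgCtl normoxia replicate 3 (adjusted p up to 0.0205, log2 fold change to -0.91), without a filter on low counts (adjusted p = 0.0111) and in a fit of only the groups compared (adjusted p = 0.0355). SEMA3G, a secreted semaphorin that binds NRP2, was lower in sgXIST7 than in sgCtl in hypoxia, at 7.26 ± 1.82 against 20.6 ± 11.96 CPM (-1.51 ± 0.39, adjusted p = 0.00540). That call was lost without sgCtl hypoxia replicate 1 or 2 or sgXIST7 hypoxia replicate 2 or 3 (adjusted p up to 0.0380), without a filter on low counts (adjusted p = 0.0164) and in a fit of only the groups compared (adjusted p = 0.0492). The libraries overlapped, as replicate 3 of sgCtl hypoxia lay within the range of sgXIST7 hypoxia.

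Among the membrane-bound semaphorins, SEMA4F, a transmembrane semaphorin of class 4 (chromosome 2, 74654228 to 74683854), had 32.1, 33.5 and 31.9 CPM in the sgCtl normoxia libraries and 100.2, 76.4 and 95.3 CPM in sgCtl hypoxia. SEMA4F had 113, 146 and 122 CPM in sgXIST7 normoxia and 428, 427 and 331 in sgXIST7 hypoxia. SEMA4F in sgXIST9 had 71.8, 75.5 and 68.1 CPM in normoxia and 324, 315 and 191 in hypoxia. Every hypoxia library lay above every normoxia library of its line, and every sgXIST library above every sgCtl library of the same condition. SEMA4F rose in hypoxia in sgCtl (1.48 ± 0.18, adjusted p = 3.42e-06), in sgXIST7 (1.64 ± 0.17, adjusted p = 4.99e-07) and in sgXIST9 (1.95 ± 0.18, adjusted p = 1.12e-07). In normoxia it was higher than in sgCtl in sgXIST7 (1.97 ± 0.18, adjusted p = 4.05e-07) and in sgXIST9 (1.15 ± 0.18, adjusted p = 1.10e-04). The same held in hypoxia, in sgXIST7 (2.13 ± 0.18, adjusted p = 1.18e-07) and in sgXIST9 (1.61 ± 0.17, adjusted p = 2.52e-06). SEMA4F and NTN1 were each called in 7 of the 10 comparisons, and no other member was called in more.

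SEMA6B, a class 6 semaphorin that binds class A plexins (chromosome 19, 4542593 to 4559684), had 6.71, 5.65 and 4.76 CPM in the sgCtl normoxia libraries and 1.50, 2.28 and 2.30 CPM in sgCtl hypoxia. SEMA6B had 7.26, 11.2 and 8.71 CPM in sgXIST7 normoxia and 4.68, 4.44 and 3.54 in sgXIST7 hypoxia. SEMA6B in sgXIST9 had 18.3, 21.9 and 16.1 CPM in normoxia and 10.7, 14.5 and 14.3 in hypoxia. It ran opposite to SEMA4F in oxygen, with the hypoxia libraries below the normoxia libraries in each line, and the sgXIST9 libraries were the highest in each condition. SEMA6B fell in hypoxia in sgCtl (-1.49 ± 0.24, adjusted p = 6.78e-05) and in sgXIST7 (-1.09 ± 0.22, adjusted p = 3.65e-04), the latter call lost without sgXIST7 hypoxia replicate 3 or sgXIST7 normoxia replicate 2 (log2 fold change to -0.91) and without replicate 3 of the 3 hypoxia groups (log2 fold change -0.97). The change in sgXIST9 was -0.51 (adjusted p = 0.0418). In sgXIST9 it was higher than in sgCtl in normoxia (1.72 ± 0.21, adjusted p = 1.30e-05) and in hypoxia (2.70 ± 0.23, adjusted p = 2.03e-07). In sgXIST7 it was called higher in hypoxia only (1.07 ± 0.24, adjusted p = 0.00194), a call lost without sgCtl hypoxia replicate 1 or sgXIST7 hypoxia replicate 1 (adjusted p up to 0.0157, log2 fold change to 0.88) and in a fit of only the groups compared (adjusted p = 0.0347). Directly compared in normoxia, SEMA6B was lower in sgXIST7 than in sgXIST9 (-1.05 ± 0.21, adjusted p = 0.00260), a call lost without sgXIST7 normoxia replicate 1 or 3 or sgXIST9 normoxia replicate 1 or 2 (adjusted p up to 0.0222, log2 fold change to -0.91).

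SEMA6C, another class 6 semaphorin (chromosome 1, 151131687 to 151146631), had 1.41, 1.93 and 1.15 CPM in the sgCtl normoxia libraries and 7.06, 5.01 and 3.37 CPM in sgCtl hypoxia. SEMA6C had 1.04, 1.78 and 1.13 CPM in sgXIST7 normoxia and 3.11, 2.49 and 1.38 in sgXIST7 hypoxia. SEMA6C in sgXIST9 had 0.937, 1.12 and 0.584 CPM in normoxia and 4.65, 7.35 and 2.34 in hypoxia. Hypoxia and normoxia libraries did not overlap in sgCtl and sgXIST9, and overlapped in sgXIST7. SEMA6C rose in hypoxia in sgCtl (1.80 ± 0.42, adjusted p = 0.00185) and in sgXIST9 (2.43 ± 0.43, adjusted p = 1.43e-04), and the sgCtl call was lost without sgCtl hypoxia replicate 1 or sgCtl normoxia replicate 3 (adjusted p up to 0.0129). SEMA4B was called in hypoxia in sgXIST9 alone among the 3 lines, rising from 16.2 ± 0.792 to 34.3 ± 14.3 CPM (1.08 ± 0.30, adjusted p = 0.00526), a call lost without sgXIST9 hypoxia replicate 1 or 2 or sgXIST9 normoxia replicate 1, 2 or 3 (adjusted p up to 0.0467, log2 fold change to 0.72), without a filter on low counts (adjusted p = 0.0141), in a fit of only the groups compared (adjusted p = 0.0115) and with a replicate block (log2 fold change 0.999). SEMA4C, the PLXNB2 ligand, was lower in sgXIST7 than in sgCtl in normoxia, at 40.0 ± 1.48 against 82.5 ± 5.27 CPM (-1.04 ± 0.11, adjusted p = 1.80e-06). In hypoxia the same difference was called (-1.05 ± 0.11, adjusted p = 1.40e-06), and it was lost without sgXIST7 hypoxia replicate 3 (log2 fold change -0.95) and without replicate 3 of the 3 hypoxia groups (log2 fold change -0.93). SEMA7A, the GPI-anchored semaphorin, was higher in sgXIST7 in normoxia, at 9.08 ± 0.188 against 2.89 ± 0.525 CPM in sgCtl (1.66 ± 0.33, adjusted p = 0.00117) and 1.42 ± 0.687 CPM in sgXIST9 (2.67 ± 0.34, adjusted p = 4.18e-05 for sgXIST7 against sgXIST9).

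Of the semaphorin receptors, NRP1, the co-receptor of SEMA3A that also binds VEGF (chromosome 10, 33177491 to 33334905), had 0.201, 0.387 and 0.459 CPM in the sgCtl normoxia libraries and 1.44, 1.19 and 0.709 CPM in sgCtl hypoxia. NRP1 had 2.03, 1.06 and 0.915 CPM in sgXIST7 normoxia and 1.24, 1.09 and 0.691 in sgXIST7 hypoxia. NRP1 in sgXIST9 had 0.446, 0.319 and 0.175 CPM in normoxia and 1.64, 1.77 and 1.07 in hypoxia. Its level was low throughout, and in sgXIST7 the normoxia libraries overlapped with the hypoxia libraries. NRP1 rose in hypoxia in sgCtl (1.67 ± 0.46, adjusted p = 0.00644) and in sgXIST9 (2.21 ± 0.43, adjusted p = 3.95e-04). The sgCtl call was lost without sgCtl hypoxia replicate 1 or 2 or sgCtl normoxia replicate 1, 2 or 3 (adjusted p up to 0.0373). In normoxia NRP1 was higher in sgXIST7 than in sgCtl (1.91 ± 0.45, adjusted p = 0.00482), lost without sgCtl normoxia replicate 1, 2 or 3 or sgXIST7 normoxia replicate 1 (adjusted p up to 0.0355) and in a fit of only the groups compared (adjusted p = 0.0133), and higher than in sgXIST9 (2.04 ± 0.44, adjusted p = 0.00512), lost without sgXIST7 normoxia replicate 1 or sgXIST9 normoxia replicate 1, 2 or 3 (adjusted p up to 0.0394) and in a fit of only the groups compared (adjusted p = 0.0142). NRP2, the co-receptor of SEMA3F, was high in sgXIST7 and stood at 79.8 ± 2.09 CPM in sgXIST7 normoxia against 1.47 ± 0.310 CPM in sgCtl (5.76 ± 0.38, adjusted p = 1.04e-08) and 2.06 ± 0.275 CPM in sgXIST9 (5.28 ± 0.36, adjusted p = 2.42e-08). In hypoxia NRP2 was again higher in sgXIST7, at 99.9 ± 34.8 against 2.15 ± 1.34 CPM (5.46 ± 0.37, adjusted p = 9.11e-09).

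PLXNB3, a class B plexin on the X chromosome (chromosome X, 153764196 to 153779346), had 5.90, 8.12 and 4.65 CPM in the sgCtl normoxia libraries and 10.3, 11.6 and 35.9 CPM in sgCtl hypoxia. PLXNB3 had 2.03, 4.05 and 1.31 CPM in sgXIST7 normoxia and 10.3, 13.0 and 21.7 in sgXIST7 hypoxia. PLXNB3 in sgXIST9 had 2.19, 2.50 and 1.52 CPM in normoxia and 9.34, 13.3 and 13.4 in hypoxia. Hypoxia libraries lay above the normoxia libraries in each line, and replicate 3 of sgCtl hypoxia was far above the other two of its group. PLXNB3 rose in sgCtl (1.62 ± 0.45, adjusted p = 0.00664), in sgXIST7 (2.61 ± 0.48, adjusted p = 1.70e-04) and in sgXIST9 (2.53 ± 0.48, adjusted p = 3.03e-04). The sgCtl call was lost without sgCtl hypoxia replicate 3 or sgCtl normoxia replicate 1, 2 or 3 (adjusted p up to 0.0697, log2 fold change to 0.82), without a filter on low counts (adjusted p = 0.0228), in a fit of only the groups compared (adjusted p = 0.0274) and without replicate 3 of the 3 hypoxia groups (adjusted p = 0.0442, log2 fold change 0.83). PLXND1, the plexin that SEMA3E binds (chromosome 3, 129555213 to 129606739), had 7.78, 11.4 and 7.81 CPM in the sgCtl normoxia libraries and 16.3, 15.4 and 11.7 CPM in sgCtl hypoxia. PLXND1 had 18.5, 27.0 and 18.6 CPM in sgXIST7 normoxia and 18.5, 26.6 and 28.1 in sgXIST7 hypoxia. PLXND1 in sgXIST9 had 21.2, 25.0 and 18.5 CPM in normoxia and 23.2, 22.2 and 29.0 in hypoxia. The normoxia libraries of both sgXIST lines lay above those of sgCtl. PLXND1 was higher in normoxia in sgXIST7 (1.25 ± 0.22, adjusted p = 3.51e-04) and in sgXIST9 (1.27 ± 0.22, adjusted p = 3.11e-04), while in hypoxia the differences were 0.74 and 0.77, within the threshold of 1. PLXNC1, the SEMA7A receptor, was called higher in hypoxia in sgCtl, with 16, 16 and 5 counts against 3, 1 and 3 (2.26 ± 0.61, adjusted p = 0.00531). That call was lost without sgCtl hypoxia replicate 1 or 2 or sgCtl normoxia replicate 1, 2 or 3 (adjusted p up to 0.0256). The gene passed the filter on low counts through hypoxia libraries, in which it is high. PLXNC1 shares 3.04% of its exon length with the opposite strand of CEP83, and whether counting used strand is not given in the sources used here.

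In the slit and ROBO system, SLIT2 was higher in sgXIST7 than in sgCtl in normoxia, at 517 ± 86.5 against 258 ± 15.4 CPM (log2 fold change 1.00 ± 0.19, adjusted p = 0.00101), and in hypoxia, at 520.4 ± 97.9 against 229.8 ± 71.4 CPM (1.18 ± 0.19, adjusted p = 1.54e-04). The normoxia call sat at the threshold and was lost without sgCtl normoxia replicate 1 or sgXIST7 normoxia replicate 2 (log2 fold change to 0.86), without a filter on low counts (log2 fold change 0.998) and with upper-quartile scaling (log2 fold change 0.99). The hypoxia call was lost in a fit of only the groups compared (adjusted p = 0.0104). ROBO3, a ROBO family receptor known from midline crossing (chromosome 11, 124865432 to 124881471), had 3.62, 4.64 and 3.90 CPM in the sgCtl normoxia libraries and 6.25, 4.66 and 10.8 CPM in sgCtl hypoxia. ROBO3 had 2.98, 4.61 and 3.57 CPM in sgXIST7 normoxia and 11.7, 11.6 and 9.06 in sgXIST7 hypoxia. ROBO3 in sgXIST9 had 3.30, 3.88 and 3.33 CPM in normoxia and 8.93, 10.1 and 11.8 in hypoxia. Normoxia libraries overlapped between the 3 lines, and the hypoxia libraries of each line lay above its normoxia libraries, by very little for replicate 2 of sgCtl. ROBO3 rose in sgXIST7 (1.54 ± 0.26, adjusted p = 7.09e-05) and in sgXIST9 (1.55 ± 0.26, adjusted p = 8.52e-05), and its change in sgCtl was 0.82 (adjusted p = 0.0152). ROBO4, whose gene lies 2.2 kb from ROBO3, had 3 counts over all libraries. ROBO2, a slit receptor, was read almost only in sgXIST7 normoxia, with 21, 13 and 26 counts there against 0, 0 and 2 in sgCtl normoxia and 2, 0 and 0 in sgXIST7 hypoxia. The ratio of sgXIST7 to sgCtl in normoxia was 21.2 (95% exact interval 5.61 to 179) and that of normoxia to hypoxia in sgXIST7 was 25.6 (95% exact interval 6.77 to 216), with adjusted p values of 0.00340 and 6.18e-04. The first of these calls was lost without sgCtl normoxia replicate 1 or 2 or sgXIST7 normoxia replicate 3 (adjusted p up to 0.0225) and with DESeq2 (adjusted p = 0.0162). Against sgXIST9 in normoxia, with 0 counts in its 3 libraries, ROBO2 in sgXIST7 was at least 5.90-fold higher (adjusted p = 0.00118). Only sgXIST7 normoxia brought ROBO2 past the filter on low counts, so the group in which it is high also decided that it was tested.

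In the netrin system, NTN1, netrin-1 (chromosome 17, 9021510 to 9244000), had 2.68, 3.17 and 2.58 CPM in the sgCtl normoxia libraries and 2.94, 3.82 and 2.04 CPM in sgCtl hypoxia. NTN1 had 0.389, 0.555 and 0.436 CPM in sgXIST7 normoxia and 1.58, 1.13 and 1.12 in sgXIST7 hypoxia. NTN1 in sgXIST9 had 0.268, 0.319 and 0.292 CPM in normoxia and 1.23, 1.23 and 1.45 in hypoxia. In normoxia the sgXIST libraries lay far below all sgCtl libraries. In hypoxia they rose toward sgCtl but did not reach it. NTN1 was lower in normoxia in sgXIST7 (-2.60 ± 0.28, adjusted p = 3.24e-06) and in sgXIST9 (-3.24 ± 0.31, adjusted p = 5.38e-07). It rose in hypoxia in sgXIST7 (1.48 ± 0.29, adjusted p = 3.47e-04) and in sgXIST9 (2.13 ± 0.31, adjusted p = 2.44e-05), with a change of 0.08 in sgCtl (adjusted p = 0.809). In hypoxia it was still lower than in sgCtl in sgXIST7 (-1.20 ± 0.26, adjusted p = 0.00143) and in sgXIST9 (-1.19 ± 0.26, adjusted p = 0.00195). The sgXIST7 hypoxia call was lost without sgCtl hypoxia replicate 2 or sgXIST7 hypoxia replicate 2 (adjusted p up to 0.0132, log2 fold change to -0.96) and in a fit of only the groups compared (adjusted p = 0.0399). The sgXIST9 hypoxia call was lost without sgCtl hypoxia replicate 2 or sgXIST9 hypoxia replicate 1 (adjusted p up to 0.0177, log2 fold change to -0.95) and in a fit of only the groups compared (adjusted p = 0.0555).

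NTN3, another netrin (chromosome 16, 2471297 to 2474145), had 0.671, 0.773 and 0.344 CPM in the sgCtl normoxia libraries and 0.625, 0.397 and 1.77 CPM in sgCtl hypoxia. NTN3 had 0.994, 1.33 and 1.26 CPM in sgXIST7 normoxia and 2.96, 2.22 and 5.35 in sgXIST7 hypoxia. NTN3 in sgXIST9 had 1.87, 1.33 and 1.05 CPM in normoxia and 4.10, 5.08 and 6.12 in hypoxia. The hypoxia libraries of both sgXIST lines lay above their normoxia libraries and above all sgCtl libraries, and replicate 3 was the highest in each hypoxia group. NTN3 rose in hypoxia in sgXIST7 (1.52 ± 0.42, adjusted p = 0.00527) and in sgXIST9 (1.83 ± 0.41, adjusted p = 0.00130), and the sgXIST7 call was lost without sgXIST7 hypoxia replicate 3 or sgXIST7 normoxia replicate 1, 2 or 3 (adjusted p up to 0.0368). In hypoxia NTN3 was higher than in sgCtl in sgXIST7 (1.98 ± 0.46, adjusted p = 0.00242), a call lost without sgCtl hypoxia replicate 1 or 2 or sgXIST7 hypoxia replicate 3 (adjusted p up to 0.0176) and in a fit of only the groups compared (adjusted p = 0.0407). It was also higher in sgXIST9 (2.55 ± 0.45, adjusted p = 3.83e-04), a call lost in a fit of only the groups compared (adjusted p = 0.0193). UNC5B, the netrin-1 receptor that mediates repulsion (chromosome 10, 71212570 to 71302862), had 0.872, 1.39 and 1.32 CPM in the sgCtl normoxia libraries and 5.44, 5.36 and 2.04 CPM in sgCtl hypoxia. UNC5B had 2.85, 2.33 and 2.70 CPM in sgXIST7 normoxia and 2.58, 2.36 and 3.45 in sgXIST7 hypoxia. UNC5B in sgXIST9 had 3.39, 1.70 and 2.34 CPM in normoxia and 5.47, 6.63 and 6.94 in hypoxia. Hypoxia libraries lay above normoxia libraries in sgCtl and sgXIST9, and overlapped with them in sgXIST7. UNC5B rose in sgCtl (1.86 ± 0.35, adjusted p = 3.13e-04) and in sgXIST9 (1.35 ± 0.32, adjusted p = 0.00174), the latter call lost without sgXIST9 normoxia replicate 2 (adjusted p = 0.0136). With DCC, UNC5A, UNC5C and UNC5D under the filter, UNC5B was the one receptor of the netrin list that could be tested.

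Of the ephrins, EFNA3, a GPI-anchored ephrin (chromosome 1, 155078837 to 155087538), had 5.70, 5.65 and 5.97 CPM in the sgCtl normoxia libraries and 28.3, 23.0 and 42.6 CPM in sgCtl hypoxia. EFNA3 had 5.45, 7.61 and 5.18 CPM in sgXIST7 normoxia and 44.8, 49.9 and 67.4 in sgXIST7 hypoxia. EFNA3 in sgXIST9 had 6.92, 6.75 and 7.01 CPM in normoxia and 35.6, 31.9 and 44.7 in hypoxia. The 9 normoxia libraries lay in a narrow range and all 9 hypoxia libraries above it. EFNA3 rose in sgCtl (2.43 ± 0.23, adjusted p = 2.74e-07), in sgXIST7 (3.15 ± 0.23, adjusted p = 6.72e-09) and in sgXIST9 (2.44 ± 0.22, adjusted p = 1.24e-07), and these calls were lost under no alternative run. Its neighbors on chromosome 1, EFNA4 at 9.3 kb and EFNA1 at 40.3 kb, are also ephrins. EFNA4, named here after its values were seen, changed by 0.55, 0.55 and 0.75 in sgCtl, sgXIST7 and sgXIST9, within the threshold of 1. EFNA1 rose in sgCtl, from 1.50 ± 0.542 to 5.86 ± 2.56 CPM (1.96 ± 0.49, adjusted p = 0.00326), a call lost without sgCtl hypoxia replicate 1 or 2 or sgCtl normoxia replicate 1 or 2 (adjusted p up to 0.0191).

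EFNB1, a transmembrane ephrin on the X chromosome (chromosome X, 68828997 to 68842163), had 11.2, 8.82 and 9.36 CPM in the sgCtl normoxia libraries and 52.1, 64.8 and 20.6 CPM in sgCtl hypoxia. EFNB1 had 8.39, 6.55 and 7.15 CPM in sgXIST7 normoxia and 17.2, 14.0 and 17.3 in sgXIST7 hypoxia. EFNB1 in sgXIST9 had 14.7, 15.2 and 12.6 CPM in normoxia and 34.4, 41.5 and 26.4 in hypoxia. Hypoxia libraries lay above the normoxia libraries in each line, and replicate 3 of sgCtl hypoxia was the lowest of its group. EFNB1 rose in sgCtl (2.23 ± 0.29, adjusted p = 1.00e-05), in sgXIST7 (1.13 ± 0.29, adjusted p = 0.00317) and in sgXIST9 (1.27 ± 0.28, adjusted p = 0.00113), and the sgXIST7 call was lost without sgXIST7 hypoxia replicate 1 or sgXIST7 normoxia replicate 2 or 3 (adjusted p up to 0.0155). In hypoxia EFNB1 was lower in sgXIST7 than in sgCtl (-1.51 ± 0.28, adjusted p = 4.76e-04), a call lost in a fit of only the groups compared (adjusted p = 0.0207). EFNA5, a GPI-anchored ephrin (chromosome 5, 107376894 to 107670937), had 2.35, 1.93 and 0.574 CPM in the sgCtl normoxia libraries and 0.813, 0.744 and 0.0886 CPM in sgCtl hypoxia. EFNA5 had 32.3, 36.9 and 29.6 CPM in sgXIST7 normoxia and 7.69, 8.43 and 10.2 in sgXIST7 hypoxia. EFNA5 in sgXIST9 had 12.3, 10.1 and 11.9 CPM in normoxia and 5.01, 6.85 and 5.24 in hypoxia. The sgXIST7 libraries were highest, those of sgXIST9 between, and those of sgCtl lowest, with no overlap between lines in either condition. EFNA5 was higher in normoxia in sgXIST7 (4.37 ± 0.37, adjusted p = 1.80e-07) and in sgXIST9 (2.85 ± 0.36, adjusted p = 1.60e-05), and again in hypoxia in sgXIST7 (3.86 ± 0.41, adjusted p = 1.99e-06) and in sgXIST9 (3.25 ± 0.42, adjusted p = 1.61e-05). It fell in hypoxia in sgXIST7 (-1.91 ± 0.31, adjusted p = 5.64e-05). In normoxia it was higher in sgXIST7 than in sgXIST9 (1.52 ± 0.31, adjusted p = 0.00324), a call lost without sgXIST7 normoxia replicate 1 or 2 or sgXIST9 normoxia replicate 1, 2 or 3 (adjusted p up to 0.0262).

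EFNA2, a GPI-anchored ephrin at low level, had 8, 5 and 10 counts in sgCtl normoxia and 0, 1 and 2 in sgXIST9 normoxia, a ratio of sgCtl to sgXIST9 of 9.89 (95% exact interval 2.99 to 51.4) and an adjusted p of 0.00490. In sgXIST9 hypoxia it had 9, 7 and 10 counts, a ratio of hypoxia to normoxia of 8.45 (95% exact interval 2.59 to 43.6) and an adjusted p of 0.00256. Both calls were fragile, the first being lost without sgCtl normoxia replicate 1 or 3 or sgXIST9 normoxia replicate 1 or 2 (adjusted p up to 0.0311) and the other without sgXIST9 normoxia replicate 1 or 2 (adjusted p up to 0.0176). EFNA2 was also lower in sgXIST7 than in sgCtl in hypoxia (-2.26 ± 0.62, adjusted p = 0.00762), a call lost without sgCtl hypoxia replicate 1 or 2 or sgXIST7 hypoxia replicate 1, 2 or 3 (adjusted p up to 0.0519), with DESeq2 (adjusted p = 0.0129) and without a filter on low counts (adjusted p = 0.0131). EFNA2 passed the filter on low counts through sgCtl and sgXIST9 hypoxia, in which it is higher. EFNB3, a transmembrane ephrin, was higher in sgXIST7 than in sgCtl in normoxia, at 12.6 ± 3.08 against 5.38 ± 0.802 CPM (1.23 ± 0.21, adjusted p = 4.10e-04), and in hypoxia (1.35 ± 0.21, adjusted p = 1.12e-04). In sgXIST9 it rose in hypoxia to 11.7 ± 1.25 CPM (1.02 ± 0.21, adjusted p = 5.96e-04), a call at the threshold that was lost without sgXIST9 hypoxia replicate 2 or sgXIST9 normoxia replicate 2 (log2 fold change to 0.96), with DESeq2 (log2 fold change 1.000), with median-of-ratios scaling (log2 fold change 0.998) and in a fit of only the groups compared (log2 fold change 0.996). There EFNB3 was higher than in sgCtl (1.10 ± 0.21, adjusted p = 8.86e-04), lost without sgCtl hypoxia replicate 2 (log2 fold change 0.99) and in a fit of only the groups compared (adjusted p = 0.0138), and in normoxia it was higher in sgXIST7 than in sgXIST9 (1.12 ± 0.21, adjusted p = 0.00180), lost without sgXIST7 normoxia replicate 2 or sgXIST9 normoxia replicate 2 (adjusted p up to 0.0149, log2 fold change to 0.90). EFNB2, under the filter on low counts and described after its values were seen, had 58, 91 and 1 counts in sgCtl hypoxia and at most 10 in any other library.

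Of the EphA receptors, EPHA6, a receptor of the GPI-anchored ephrins (chromosome 3, 96814594 to 97761532), had 1, 1 and 2 counts in the sgCtl normoxia libraries and 3, 9 and 0 counts in sgCtl hypoxia. EPHA6 had 102, 47 and 57 counts in sgXIST7 normoxia and 139, 181 and 112 in sgXIST7 hypoxia. EPHA6 in sgXIST9 had 107, 82 and 89 counts in normoxia and 145, 162 and 152 in hypoxia. No sgCtl library exceeded 9 counts, and every sgXIST library held at least 47. EPHA6 passed the filter on low counts through the sgXIST groups, so the groups in which it is high also decided that it was tested. In normoxia the ratio to sgCtl was 36.4 (95% exact interval 14.0 to 135) in sgXIST7 and 53.9 (95% exact interval 20.8 to 199) in sgXIST9, with adjusted p values of 2.20e-06 and 4.21e-07. In hypoxia EPHA6 was higher in sgXIST7 (5.02 ± 0.44, adjusted p = 1.87e-07) and in sgXIST9 (4.96 ± 0.43, adjusted p = 2.24e-07). It rose in hypoxia in sgXIST7 (1.36 ± 0.32, adjusted p = 0.00145), a call lost without sgXIST7 normoxia replicate 3 (adjusted p = 0.0114). EPHA1, an Eph receptor of epithelia (chromosome 7, 143391131 to 143408856), had 0.671, 0.309 and 0.230 CPM in the sgCtl normoxia libraries and 0.313, 0.248 and 0.0886 CPM in sgCtl hypoxia. EPHA1 had 2.29, 3.17 and 3.05 CPM in sgXIST7 normoxia and 1.15, 1.68 and 1.64 in sgXIST7 hypoxia. EPHA1 in sgXIST9 had 6.43, 6.75 and 8.41 CPM in normoxia and 5.38, 6.44 and 9.09 in hypoxia. Levels were in the order sgCtl, sgXIST7, sgXIST9, without overlap between lines in either condition. Like EPHA6, EPHA1 passed the filter on low counts through the sgXIST groups. EPHA1 was higher in normoxia in sgXIST7 (2.80 ± 0.37, adjusted p = 2.32e-05) and in sgXIST9 (4.14 ± 0.36, adjusted p = 2.06e-07), and in hypoxia in sgXIST7 (2.65 ± 0.42, adjusted p = 1.04e-04) and in sgXIST9 (4.88 ± 0.39, adjusted p = 7.20e-08). In normoxia it was lower in sgXIST7 than in sgXIST9 (-1.34 ± 0.28, adjusted p = 0.00458), a call lost without sgXIST7 normoxia replicate 1, 2 or 3 or sgXIST9 normoxia replicate 1, 2 or 3 (adjusted p up to 0.0318).

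EPHA3, a receptor of the GPI-anchored ephrins (chromosome 3, 89107621 to 89482134), had 0.201, 0 and 0.459 CPM in the sgCtl normoxia libraries and 0.688, 0.744 and 1.77 CPM in sgCtl hypoxia. EPHA3 had 0.346, 0.611 and 0.218 CPM in sgXIST7 normoxia and 8.65, 15.3 and 15.7 in sgXIST7 hypoxia. EPHA3 in sgXIST9 had 1.29, 0.903 and 1.05 CPM in normoxia and 4.42, 3.45 and 9.28 in hypoxia. Levels were highest in sgXIST7 hypoxia and replicate 3 of sgXIST9 hypoxia, and the normoxia libraries of sgXIST7 overlapped with those of sgCtl. EPHA3 rose in hypoxia in sgXIST7 (5.09 ± 0.55, adjusted p = 6.31e-07) and in sgXIST9 (2.37 ± 0.48, adjusted p = 5.09e-04), with a change of 2.06 in sgCtl (adjusted p = 0.0196). In hypoxia EPHA3 was higher than in sgCtl in sgXIST7 (3.69 ± 0.50, adjusted p = 2.57e-05) and in sgXIST9 (2.47 ± 0.50, adjusted p = 0.00118), the latter call lost without sgCtl hypoxia replicate 1 (adjusted p = 0.01003) and in a fit of only the groups compared (adjusted p = 0.0228). EPHA7, like EPHA3 a receptor of the GPI-anchored ephrins, was higher in sgXIST7 in normoxia, at 212 ± 30.3 CPM against 94.4 ± 5.40 in sgCtl (1.17 ± 0.20, adjusted p = 3.79e-04) and 89.5 ± 9.01 in sgXIST9 (1.25 ± 0.20, adjusted p = 4.84e-04), and also in hypoxia against sgCtl (1.73 ± 0.21, adjusted p = 5.97e-06). EPHA5 was higher in sgXIST7 than in sgCtl in hypoxia, at 204 ± 51.6 against 84.7 ± 38.2 CPM (1.27 ± 0.25, adjusted p = 7.57e-04), a call lost in a fit of only the groups compared (adjusted p = 0.0213). EPHA2, an epithelial Eph receptor, was higher in sgXIST9 than in sgCtl in normoxia, at 126 ± 11.4 against 60.6 ± 3.55 CPM (1.06 ± 0.22, adjusted p = 0.00179), a call lost without sgCtl normoxia replicate 1 or sgXIST9 normoxia replicate 2 (adjusted p up to 0.0115, log2 fold change to 0.98). EPHA10, which lacks kinase activity, rose in sgXIST9 in hypoxia from 6.49 ± 1.03 to 13.5 ± 2.66 CPM (1.06 ± 0.17, adjusted p = 4.30e-05), a call lost without sgXIST9 hypoxia replicate 2 or sgXIST9 normoxia replicate 2 or 3 (log2 fold change to 0.91). In normoxia EPHA10 was higher in sgXIST7 than in sgXIST9 (1.18 ± 0.16, adjusted p = 9.99e-05).

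Of the EphB receptors, EPHB3, a receptor of the transmembrane ephrins (chromosome 3, 184561785 to 184582408), had 0.335, 0.309 and 0 CPM in the sgCtl normoxia libraries and 1.38, 1.34 and 1.77 CPM in sgCtl hypoxia. EPHB3 had 0.173, 0.666 and 0.131 CPM in sgXIST7 normoxia and 6.74, 5.57 and 5.27 in sgXIST7 hypoxia. EPHB3 in sgXIST9 had 0.312, 0.159 and 0.175 CPM in normoxia and 3.87, 3.09 and 3.09 in hypoxia. All 9 hypoxia libraries lay above all 9 normoxia libraries. EPHB3 passed the filter on low counts through the hypoxia groups, so the groups in which it is high also decided that it was tested. EPHB3 rose in sgCtl (2.83 ± 0.60, adjusted p = 8.18e-04), in sgXIST7 (4.23 ± 0.50, adjusted p = 1.70e-06) and in sgXIST9 (3.88 ± 0.53, adjusted p = 1.03e-05). In hypoxia it was higher in sgXIST7 than in sgCtl (1.98 ± 0.43, adjusted p = 0.00149). EPHB6, an Eph receptor without kinase activity (chromosome 7, 142855014 to 142871093), had 0.403, 0.0773 and 0.115 CPM in the sgCtl normoxia libraries and 1.56, 0.893 and 0.620 CPM in sgCtl hypoxia. EPHB6 had 0.130, 0.333 and 0.131 CPM in sgXIST7 normoxia and 0.764, 0.544 and 0.0863 in sgXIST7 hypoxia. EPHB6 in sgXIST9 had 0.446, 0.531 and 0.759 CPM in normoxia and 1.64, 2.50 and 1.45 in hypoxia. Counts were few, and hypoxia libraries lay above normoxia libraries in sgCtl and sgXIST9. Like EPHB3, EPHB6 passed the filter on low counts through hypoxia groups, in which it is high. EPHB6 rose in sgCtl (2.35 ± 0.63, adjusted p = 0.00535), a call lost without sgCtl hypoxia replicate 1 or sgCtl normoxia replicate 2 or 3 (adjusted p up to 0.0337), and in sgXIST9 (1.70 ± 0.50, adjusted p = 0.00800), a call lost without sgXIST9 hypoxia replicate 1 or 2 or sgXIST9 normoxia replicate 1, 2 or 3 (adjusted p up to 0.0425). EPHB2 rose in sgXIST9, from 1.58 ± 0.312 to 6.11 ± 3.12 CPM (1.97 ± 0.50, adjusted p = 0.00319), a call lost without sgXIST9 hypoxia replicate 1 or 2 or sgXIST9 normoxia replicate 1 or 2 (adjusted p up to 0.0179). In sgCtl, EPHB2 had 50, 61 and 83 counts in normoxia and 214, 310 and 55 in hypoxia, a change that was not called. Scaled to library size, these hypoxia libraries lay above the normoxia libraries, replicate 3 by very little. In hypoxia it was lower in sgXIST7 than in sgCtl (-1.68 ± 0.47, adjusted p = 0.00909), a call lost without sgCtl hypoxia replicate 1 or 2 or sgXIST7 hypoxia replicate 2 or 3 (adjusted p up to 0.0484), without a filter on low counts (adjusted p = 0.0221) and in a fit of only the groups compared (adjusted p = 0.0585). EPHB1 had 2, 2 and 1 counts in sgXIST9 normoxia against 10, 10 and 10 in sgCtl and 12, 12 and 14 in sgXIST7. Its ratio of sgCtl to sgXIST9 was 7.74 (95% exact interval 2.97 to 25.5) with an adjusted p of 0.00130, and that of sgXIST7 to sgXIST9 was 6.92 (95% exact interval 2.72 to 22.5) with an adjusted p of 0.00407. The call against sgXIST7 was lost without sgXIST7 normoxia replicate 2 or 3 or sgXIST9 normoxia replicate 1, 2 or 3 (adjusted p up to 0.0273). EPHB1 passed the filter on low counts through sgCtl and sgXIST7, the lines in which it is higher.

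**Figure D4:**
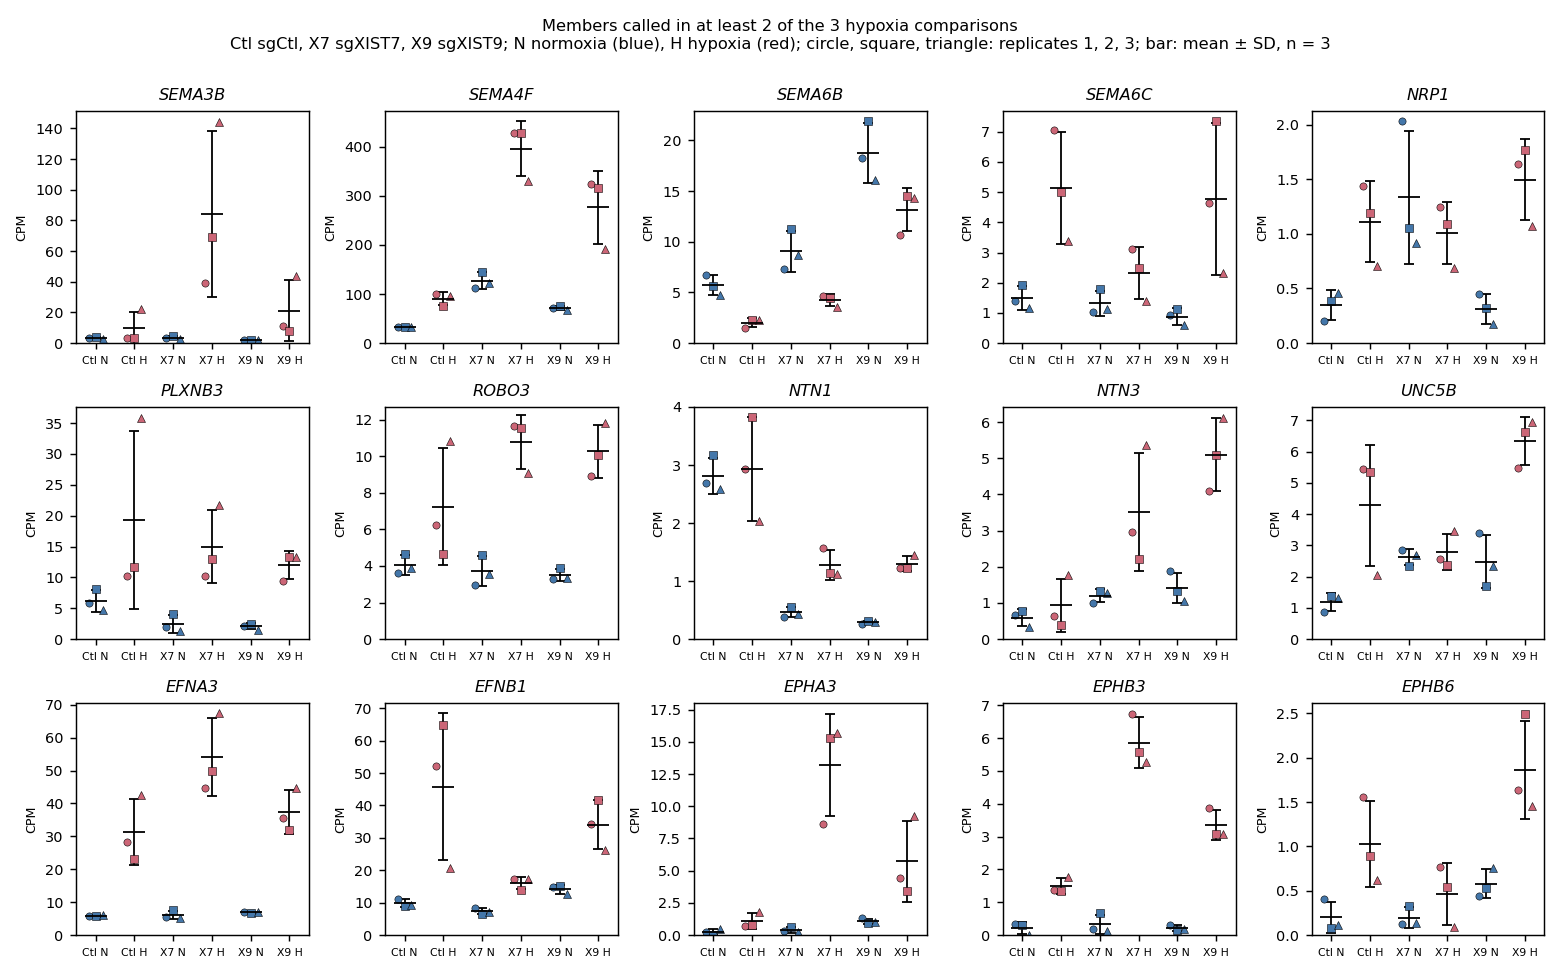
Level in each library (CPM, linear axis) of the 15 members called in at least 2 of the 3 hypoxia comparisons. Normoxia and hypoxia are side by side for each line, with points for libraries and bars for the mean ± SD of 3. EFNA3 and EPHB3 show 9 hypoxia points above 9 normoxia points, and SEMA6B runs the other way in each line.

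**Figure D5:**
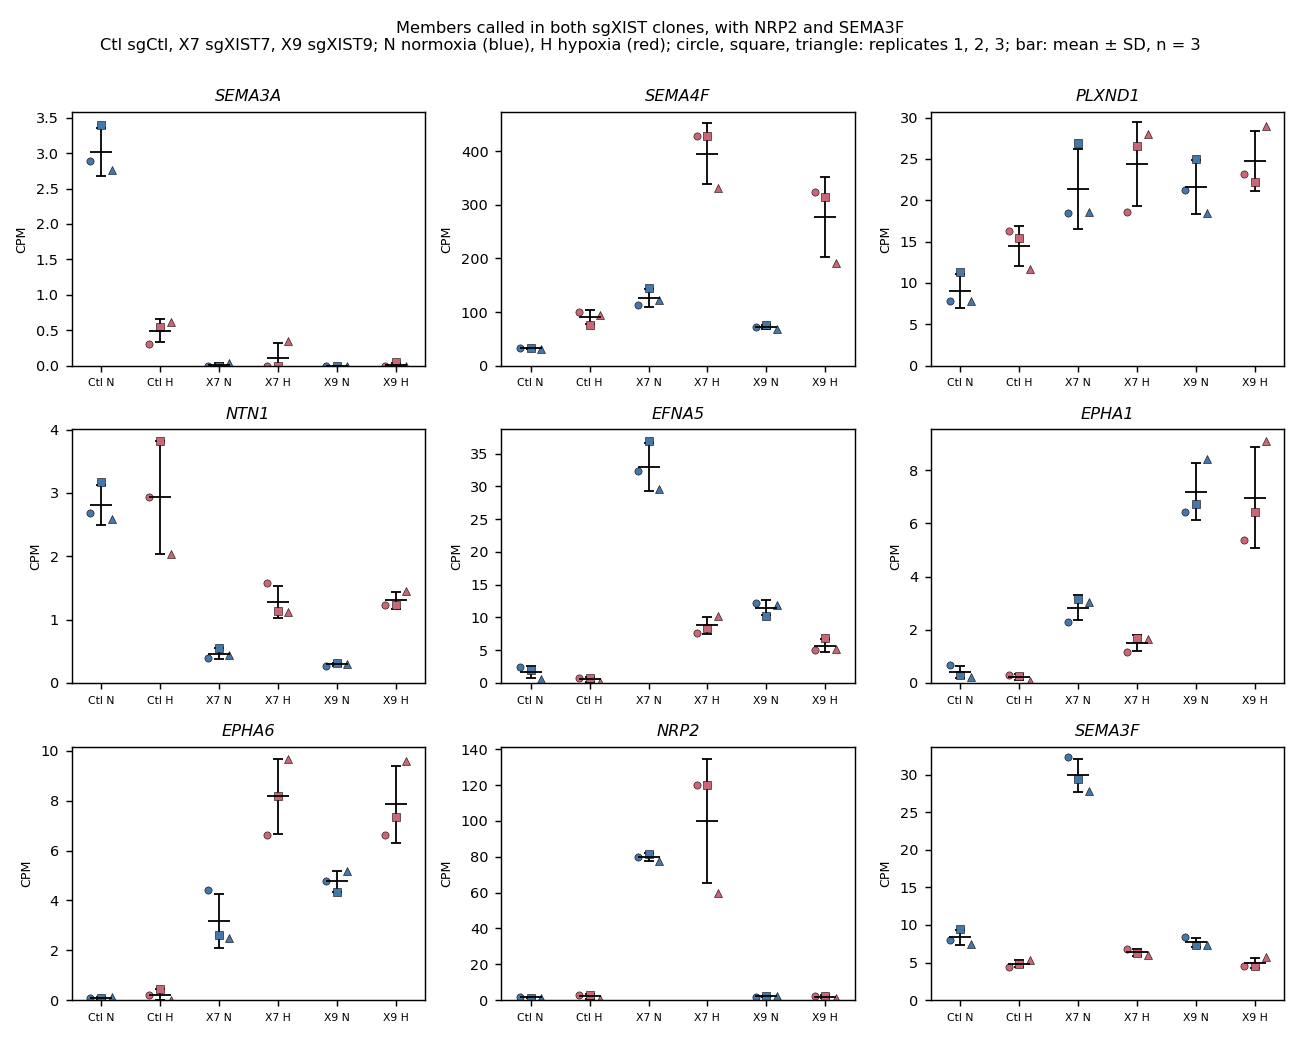
Level in each library (CPM, linear axis) of the 7 members called in the same direction in both sgXIST lines against sgCtl in normoxia, and of NRP2 and SEMA3F. All 6 groups are shown, with points for libraries and bars for the mean ± SD of 3. SEMA3A is at or near 0 in both sgXIST lines, NTN1 lies below sgCtl, and SEMA4F, PLXND1, EFNA5, EPHA1 and EPHA6 lie above it.

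For the 5 members called higher in hypoxia in all 3 lines, the bases before the transcription start were searched for the core of the hypoxia response element, the short motif bound by hypoxia-inducible factors, spelled ACGTG or GCGTG and taken on both strands. The 250 bases upstream of the RefSeq start of 4 of them are shown 5′ to 3′ on the plus strand (RefSeq, GRCh38.p14), because these are the promoters of the genes with the shared response. Capitals mark the motif, CACGC or CACGT being its match on the reverse strand. The gene start of the deposited table lies before the RefSeq start in 3 genes, so that the last 24 bases for EFNB1, 19 for SEMA4F and 53 for PLXNB3 lie at or past it, and PLXNB3, with the most such bases, is not shown.
EFNA3, chr1:155078587-155078836: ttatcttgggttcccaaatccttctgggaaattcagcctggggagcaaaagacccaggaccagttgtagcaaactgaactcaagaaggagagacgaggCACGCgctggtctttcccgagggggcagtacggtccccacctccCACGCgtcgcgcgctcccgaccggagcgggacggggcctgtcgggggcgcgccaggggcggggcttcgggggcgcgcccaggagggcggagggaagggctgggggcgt
EFNB1, chrX:68828771-68829020: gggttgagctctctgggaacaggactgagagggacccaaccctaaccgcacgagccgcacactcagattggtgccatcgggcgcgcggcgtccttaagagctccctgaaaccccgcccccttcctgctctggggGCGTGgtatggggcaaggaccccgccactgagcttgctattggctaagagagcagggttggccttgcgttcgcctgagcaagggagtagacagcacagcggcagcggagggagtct
EPHB3, chr3:184561535-184561784: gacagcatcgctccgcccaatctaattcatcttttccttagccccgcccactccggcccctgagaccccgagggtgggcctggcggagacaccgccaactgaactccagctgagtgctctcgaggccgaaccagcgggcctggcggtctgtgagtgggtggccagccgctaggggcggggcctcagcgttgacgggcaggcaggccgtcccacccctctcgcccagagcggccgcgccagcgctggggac
SEMA4F, chr2:74653997-74654246: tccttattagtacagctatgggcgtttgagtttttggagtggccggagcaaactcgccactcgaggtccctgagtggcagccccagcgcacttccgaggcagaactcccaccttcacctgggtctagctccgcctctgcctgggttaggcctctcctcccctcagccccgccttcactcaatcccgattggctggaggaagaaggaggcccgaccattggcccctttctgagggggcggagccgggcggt
EFNA3 held 2 matches, 152 and 108 bases before the RefSeq start and both on the reverse strand, EFNB1 held 1 on the forward strand at 116 bases, and the letters were not found in these 250 bases of EPHB3, SEMA4F and PLXNB3. Of all genes of the table with a RefSeq promoter, 8844 of 18292 (48.3%) held a match in the same 250 bases, and of the members 26 of 58 (44.8%). With the 50 bases after the start added, EPHB3 and PLXNB3 held 1 match each, so that 4 of the 5 genes had a match in 300 bases, beside 9845 of 18292 (53.8%) of all genes and 30 of 58 (51.7%) of the members. A match describes the letters only and was not tied to any measurement of binding.

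The hypoxia responses of the sgXIST lines were compared with that of sgCtl by an interaction term, to ask where XIST KD lines responded differently. For sgXIST7, 1 of 50 members was called, with a lower response, beside 1.52% of all genes tested (0.904% higher and 0.616% lower), and 17 members had an unadjusted p under 0.05. That member was SEMA3F, whose response was lower by 1.45 in sgXIST7 than in sgCtl (difference -1.45 ± 0.21, adjusted p = 8.09e-04). For sgXIST9, 1 member was called, with a higher response, beside 1.01% (0.663% higher and 0.348% lower), and 12 had an unadjusted p under 0.05. That member was NTN1 (difference 2.05 ± 0.40, adjusted p = 0.00798), for which the difference in sgXIST7 was 1.40 (adjusted p = 0.0316). The NTN1 call was lost without sgCtl hypoxia replicate 1 or sgCtl normoxia replicate 1, 2 or 3 or sgXIST9 hypoxia replicate 1, 2 or 3 or sgXIST9 normoxia replicate 1, 2 or 3 (adjusted p up to 0.0320), without a filter on low counts (adjusted p = 0.0161) and in a fit of only the groups compared (adjusted p = 0.0190). Both differences use the same 6 sgCtl libraries. Without replicate 3 of the 3 hypoxia groups, 10 of 54 members tested were called for sgXIST7, beside 8.43% of all genes tested, and 7 for sgXIST9, beside 5.38%, so that calls over all genes rose too. Those for sgXIST7 then included SEMA3B (3.90 ± 0.40, adjusted p = 8.69e-06), EPHA3 (3.41 ± 0.86, adjusted p = 0.00706), SEMA3C (1.80 ± 0.21, adjusted p = 1.98e-05), UNC5B (-2.26 ± 0.39, adjusted p = 4.84e-04) and SEMA3F (-1.34 ± 0.21, adjusted p = 1.98e-04). Those for sgXIST9 included SEMA3B (2.24 ± 0.41, adjusted p = 0.00132), SEMA3C (2.002 ± 0.21, adjusted p = 1.59e-05) and NTN1 (1.78 ± 0.41, adjusted p = 0.00594).

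Compared directly in normoxia, sgXIST7 and sgXIST9 differed in 12 of 50 members, beside 3.4% of all genes tested (2.09% higher and 1.31% lower in sgXIST7), with 10 higher and 2 lower in sgXIST7. The median over the members was 0.58 against 0.01 over all genes. Higher in sgXIST7 were the neuropilins NRP1 and NRP2, the semaphorins SEMA3F (1.96 ± 0.14, adjusted p = 6.09e-08) and SEMA7A, ROBO2, the ephrins EFNA5 and EFNB3, and the Eph receptors EPHA7, EPHA10 and EPHB1. SEMA6B and EPHA1 were lower. Thus in normoxia both neuropilins, and SEMA3F as the ligand of NRP2, stood higher in sgXIST7 than in sgXIST9. The NRP1 call was lost in 4 of 6 fits that left out 1 library and in a fit of only the groups compared. In hypoxia the NRP1 libraries of sgXIST7 overlapped with those of sgXIST9, and SEMA3F in sgXIST7 was close to the rest. XIST itself was at 1 to 5 counts in sgXIST7 normoxia and at 650 to 1009 in sgXIST9 normoxia, and the level of XIST, the guide and the clone cannot be told apart.

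A list of 50 further genes of these pathways (co-receptors, adaptors and cytoplasmic effectors) held 38 that were tested. In hypoxia 11, 16 and 12 of the 38 were called in sgCtl, sgXIST7 and sgXIST9 (28.9%, 42.1% and 31.6%), beside 19.7%, 27.3% and 23.3% of all genes tested. Against sgCtl in normoxia 3 were called in sgXIST7 (7.89%, beside 7.76%) and 4 in sgXIST9 (10.5%, beside 7.7%), and in hypoxia 10 (26.3%, beside 14%) and 5 (13.2%, beside 9.53%). RND3 was called most often, in 8 comparisons. In normoxia RND3 stood at 6.03 ± 0.420 CPM in sgCtl, 0.782 ± 0.149 CPM in sgXIST7 and 0.0354 ± 0.0613 CPM in sgXIST9 (adjusted p = 1.503e-05 and 9.79e-08 against sgCtl), and in hypoxia at 32.4 ± 11.3, 5.32 ± 1.82 and 0.336 ± 0.135 CPM, so that it was lower in both sgXIST lines and rose in hypoxia in all 3. In sgXIST9 this rested on 0, 2 and 0 counts in normoxia, under the floor, and 8, 10 and 3 in hypoxia. Their ratio of hypoxia to normoxia was 10.2 (95% exact interval 2.50 to 90.1). NEO1, the DCC-related netrin receptor, was higher than in sgCtl in both sgXIST lines, by 1.12 and 1.56 in normoxia and by 1.32 and 1.91 in hypoxia. The semaphorin effectors DPYSL4 (3.41, 3.90, 2.71) and MICAL1 (1.41, 1.01, 2.08) rose in hypoxia in all 3 lines, as log2 fold changes in sgCtl, sgXIST7 and sgXIST9. CRMP1, also a semaphorin effector, rose from 0.215 ± 0.140 to 5.23 ± 1.46 CPM in sgCtl, from 0.128 ± 0.0401 to 1.64 ± 0.557 CPM in sgXIST7 and from 0.0446 ± 0.0773 to 2.04 ± 1.17 CPM in sgXIST9 (adjusted p = 7.99e-06, 9.21e-05 and 1.37e-05). Its normoxia counts were 2, 3 and 3 in sgXIST7, a ratio of hypoxia to normoxia of 13.8 (95% exact interval 6.72 to 32.9). They were 3, 0 and 0 in sgXIST9, a ratio of 41.9 (95% exact interval 14.0 to 206). CRMP1 passed the filter on low counts through the hypoxia groups, in which it is high. L1CAM, an adhesion molecule and partner of NRP1, had 4, 1 and 0 counts in sgCtl normoxia and 27, 15 and 2 in sgCtl hypoxia, which overlap, with a ratio of 8.40 (95% exact interval 3.34 to 27.1) and an adjusted p of 0.00424. L1CAM rose in sgXIST7 (3.58 ± 0.48, adjusted p = 6.39e-06) and in sgXIST9 (3.80 ± 0.49, adjusted p = 5.35e-06), and in hypoxia was higher than in sgCtl in sgXIST7 (3.38 ± 0.48, adjusted p = 3.83e-05) and sgXIST9 (3.43 ± 0.48, adjusted p = 4.04e-05). In normoxia too the sgXIST7 (0.523 to 0.944 CPM) and sgXIST9 libraries (0.584 to 0.803 CPM) lay above those of sgCtl (0 to 0.268 CPM). That difference was not called here with edgeR, whereas the paper, which used DESeq2, lists L1CAM as up-regulated with both guides. FYN, a kinase downstream of several guidance receptors, rose by 3.43, 4.66 and 3.45, and TIAM1, a Rac exchange factor, fell in all 3 by log2 fold changes of -1.10, -2.33 and -1.86. CHN1, a Rac regulator downstream of EPHA4, fell in hypoxia in sgCtl (-1.02) and sgXIST7 (-1.19) and was lower in sgXIST7 than in sgCtl in both conditions (-1.18 and -1.36). NTNG2, a membrane-anchored netrin, rose in sgXIST9 (1.74), and its response differed from that of sgCtl (1.63 ± 0.28, adjusted p = 0.00381). The response of MICAL2 in sgXIST7 also differed from that of sgCtl (-1.20 ± 0.23, adjusted p = 0.00640). ABLIM1 and KALRN were each called in 3 comparisons, and DPYSL3, FARP1, FLRT2, PAK3 and SRGAP1 in 2.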

How the data were processed

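RNA was measured in 18 libraries of OVCAR3-KRAB cells, with 3 replicates in each of 6 groups that the labels give by guide and treatment. Per the study's methods and the submitters' processing notes, total RNA was extracted with Trizol, depleted of ribosomal RNA and sequenced from stranded paired-end libraries, and the authors used Trimmomatic for trimming, FastQC for read quality, HISAT2 for alignment (build hg38) and featureCounts for counts per gene. The authors tested differential expression with DESeq2. Tool versions and the strand setting of the counting are not given in the sources used here, so reads of overlapping and antisense genes may have been mixed. The deposited values were whole-number counts per gene, not normalized; of 28279 lines, 2 broken ones were left out, and 5287 genes had no count. Depth was 11794375 to 24906936 counts per library, and 3 counts per library was taken as the floor, with ratios from few counts given with 95% exact intervals that cover counting error only.

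Counts were fitted in 1 model of the 6 groups with edgeR 4.0.16 in R 4.3.3 (trimmed mean of M values scaling, robust quasi-likelihood fit, prior count 0.125), after a filter on low counts (minimum 10, minimum total 15) that left 14938 genes. A gene near the floor in some groups could pass this filter through the groups in which it was high. Thresholds were an adjusted p (Benjamini-Hochberg, over all genes tested) of 0.01 and an absolute log2 fold change of 1, the cut-offs the study used, and 10 comparisons were made. Signed values are the first-named group minus the other. CPM values were scaled the same way, and RPKM used the exon lengths of the deposited table, promoters being those of RefSeq on GRCh38.p14. The steps were also run on simulated counts with changes set in 1 group and no shift shared between libraries. That run checks the code and not the calls made here. Alternatives were median-of-ratios and upper-quartile scaling, no filter, a filter on mean CPM, a replicate block, a fit of only the groups compared, an adjusted p of 0.05, DESeq2 1.42.0, and leaving out each replicate or replicate 3 of all hypoxia groups.

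The labels number replicates 1 to 3 in each group, without saying that a number marks a shared culture or day. Correlations of same-numbered deviations exceeded 0.1 for every pair only between sgCtl and sgXIST7 in normoxia (0.148 to 0.379) and between sgCtl and sgXIST9 in hypoxia (0.197 to 0.566). The members and lists were chosen with earlier results of these data known. Named are all members called in at least 1 comparison, the 5 with the highest RPKM in sgCtl normoxia and those filtered out, with values per library for members called in both sgXIST lines in normoxia, in at least 2 hypoxia comparisons, or in a difference between responses; of the further pathway genes, those called in at least 2 comparisons.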

Additional observations from a re-analysis of the deposited data

Results flagged for a closer look

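The hypoxia response of SEMA3F differed between sgXIST7 and sgCtl by -1.45 on the log2 scale in the test of the difference (edgeR, adjusted p = 8.09e-04), with lower values in hypoxia in both lines. The hypoxia response of NTN1 differed between sgXIST9 and sgCtl by 2.05 (edgeR, adjusted p = 0.00798), and this call was lost in 10 of 12 fits that left out 1 library, with an adjusted p of up to 0.032.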

How the results depend on the processing

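Of 120 calls of a member in a comparison, 72 held under every alternative that gave a value, 44 were lost in at least 1 fit that left out a library and 25 under another alternative. No value changed sign. A fit of only the groups compared gave 9 members in place of 14 in hypoxia against normoxia in sgCtl, 10 in place of 20 for sgXIST7 and 5 in place of 10 for sgXIST9 against sgCtl in hypoxia, and 0 in place of 1 for the sgXIST9 response difference. Calls over all genes fell too, from 2949 to 2278, from 2093 to 1113, from 1423 to 641 and from 151 to 90. Of the members, 42, 45, 47 and 49 were tested in these fits, in place of 50. The same kind of fit gave 14 in place of 12 for sgXIST9 against sgCtl in normoxia, 18 in place of 19 in hypoxia in sgXIST9, and equal numbers in the other 4 comparisons. For the first 2 of these, calls over all genes went from 1150 to 1271 and from 3474 to 3246. The sgXIST9 response difference also gave 0 members without a filter on low counts, where NTN1 had an adjusted p of 0.0161 and 194 of all genes were called. With an adjusted p under 0.05, 4 members were called for the sgXIST7 and 3 for the sgXIST9 response difference, and DESeq2 called 3 for each. Calls over all genes rose too, from 227 to 706 and 549 for sgXIST7, and from 151 to 468 and 371 for sgXIST9. With the replicate block, 2 members were called for the sgXIST9 response difference in place of 1, beside 203 of all genes in place of 151. The block moved no other count by over 1.5 times, and between sgCtl and sgXIST7 in normoxia and sgCtl and sgXIST9 in hypoxia, where the numbers may pair the libraries, no call was lost under it. Without replicate 3 of all 3 hypoxia groups, 16 members were called for sgXIST9 against sgCtl in hypoxia, 10 for the sgXIST7 and 7 for the sgXIST9 response difference, and calls over all genes rose with them, from 1423 to 1812, from 227 to 1288 and from 151 to 822. The cause of these changes was not tested.

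Leaving out 1 library at a time gave 9 to 17 members in hypoxia in sgCtl (9 without sgCtl hypoxia replicate 1), 12 to 15 in sgXIST7 and 12 to 19 in sgXIST9 (12 without sgXIST9 normoxia replicate 2). Against sgCtl in normoxia it gave 14 to 17 for sgXIST7 and 11 to 13 for sgXIST9, and in hypoxia 14 to 27 for sgXIST7 and 8 to 16 for sgXIST9 (16 without sgCtl hypoxia replicate 3). Between the sgXIST lines it gave 7 to 9, with 7 without sgXIST9 normoxia replicate 1 or 2. Response differences numbered 1 to 7 for sgXIST7 and 0 to 5 for sgXIST9, the highest of each without sgCtl hypoxia replicate 3. Without that library, response differences over all genes rose to 1198 and 725. Calls over all genes against sgCtl in hypoxia then rose to 3015 for sgXIST7 and 2000 for sgXIST9. They fell to 2596 in hypoxia in sgCtl without sgCtl hypoxia replicate 1. In hypoxia in sgXIST9 they fell to 3123 without sgXIST9 normoxia replicate 2. Members called higher in hypoxia in all 3 lines numbered 4 to 6. Few counts, as for SEMA3A, ROBO2, EFNA2, EPHB1 and PLXNC1, limit the precision of their fold changes.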
